A study of Mus musculus with 4 samples.

Results

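Alveolar macrophages, the resident phagocytes of the air space, were followed in single-cell RNA sequencing of mouse lung, together with the deep barcodes that an upper limit of 5000 detected genes would leave out. A barcode was taken as an alveolar macrophage when it held 200 to 7500 genes, at most 10% mitochondrial UMIs (unique molecular identifiers, the count of captured RNA molecules), at least 1 UMI of at least 4 of the 8 genes *Marco*, *Chil3*, *Krt79*, *Plet1*, *Fabp1*, *Ear1*, *Siglecf* and *Cidec*, and no UMI of the endothelial cadherin *Cdh5*. Of 11846 barcodes within the gene and mitochondrial limits, 660 were selected, or 5.57%. Of these 660 cells, 313 held over 5000 genes. The cells were therefore chosen on measured values, and the levels of the 8 genes are given as a description.

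The 4 libraries came from male wild-type C57BL/6 mice, each library from the left lung lobe of 3 pooled mice. The young nonventilated (YNV) and young ventilated (YV) libraries came from mice aged 2 to 3 months, and the aged nonventilated (ANV) and aged ventilated (AV) libraries from mice aged 22 months. Ventilated mice were anesthetized with ketamine and medetomidine, given buprenorphine, and ventilated for 3 hours at a high tidal volume on pure oxygen without end-expiratory pressure, whereas nonventilated mice were naive. The labels of all 4 libraries give a food-restricted diet, while the study's methods give it with the aging of the aged mice, so whether the young mice were restricted alike is unclear and diet cannot be told apart from age. Anesthesia, analgesia, oxygen and ventilation therefore cannot be told apart in the comparisons of ventilated with nonventilated cells. With 1 library per group there was no test between conditions, and differences between pools of mice cannot be told apart from the effects of age or ventilation.

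Alveolar macrophages take up inhaled particles, microbes and spent surfactant, and they depend on the lipid-sensing receptor *Pparg* and on the growth factor GM-CSF for their identity. They persist in the lung largely by local division. Oxidants, heme and metals induce in macrophages a set of protective genes that includes heme oxygenase, metallothioneins and the enzymes of glutathione synthesis, and stretch or microbial products induce cytokines through NF-kB.

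The share of barcodes taken as alveolar macrophages was 6.22% in young nonventilated lungs (183 cells, exact Clopper-Pearson 95% interval 5.37 to 7.15%). It was 5.56% in young ventilated lungs (185 cells, 4.81 to 6.39%) and 6.31% in aged nonventilated lungs (191 cells, 5.47 to 7.24%). The lowest share was 3.96% in aged ventilated lungs (101 cells, 3.23 to 4.79%), whose interval does not meet those of the other libraries. Such intervals cover counting error only, and a lower share can stand for fewer macrophages recovered or for more cells of other kinds. The selected cells were deeply sequenced, with median UMI counts of 21927 in YNV, 23767 in YV, 21975 in ANV and 23838 in AV cells. The summed UMIs behind each value below were 4284238, 4722221, 4368682 and 2598812 in the same order, so the aged ventilated library carries the widest counting error.

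The label was checked on genes that the selection did not use. The mannose receptor *Mrc1* had a UMI in at least 98.9% of the cells of each library, and the proton pump subunit *Atp6v0d2*, the integrin *Itgax* and the tetraspanin *Cd9* were near as frequent. The most abundant gene of a list of 28 further alveolar macrophage genes was *Kcnip4*, a potassium channel partner, in YNV, ANV and AV cells and *Cd9* in YV cells. Genes that mark interstitial macrophages, the macrophages of the lung wall, were low and summed to 87.5, 30.5, 31.8 and 24.2 CPM (UMIs of the gene per 1000000 UMIs of the summed cells) in YNV, YV, ANV and AV cells, against 5483 to 9203 CPM in cells chosen as interstitial macrophages, whose level on this list follows from their choice by at least 3 of its genes and is no check. At the edge of the rule, 16 cells held UMIs of exactly 4 of the 8 genes, with a median of 20695 UMIs and *Mrc1* in 93.8% of them. The 10 barcodes with exactly 3 of the 8 genes, just outside, had a median of 7810.5 UMIs and *Mrc1* in 60% of them.

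Some of the cells also carried genes of other cell types. A UMI of at least 3 genes of another type's list was found in 24.0% of YNV, 24.3% of YV, 31.9% of ANV and 49.5% of AV cells. In aged ventilated cells these were mainly neutrophil genes: at least 3 of 8 were present in 43.6% of the cells, against 9.29% in YNV, 12.4% in YV and 11.5% in ANV. The summed neutrophil list was 134, 123, 304 and 252 CPM in YNV, YV, ANV and AV cells, with *Trem1* the most abundant gene in young and *S100a8* in aged cells. B-cell genes stood at 83.8 CPM in ANV cells, all 8 of them detected, against 7.94, 1.48 and 3.08 CPM in YNV, YV and AV cells. The ANV level rested on few cells, since 172 ANV cells held none of these genes. The 8 listed fibroblast genes summed to 215, 61.4, 133 and 11.5 CPM in YNV, YV, ANV and AV cells, less after ventilation at both ages, with *Dcn* the most abundant in YNV and *Inmt* in the other libraries. At least 3 of these genes were found in 4, 5, 5 and 0 cells, and in YNV their sum was 352 CPM in cells with over 5000 genes and 19.3 CPM in the others. All 8 were detected in each library but AV, where 1 was at 0. Without the cells that carried neutrophil genes, 10 of 32 called results of listed or named genes for age with ventilation lost their call, as did 6 of 45 for ventilation in aged cells. Leaving out the cells with genes of any other type ended 13 and 10 of these calls, and 9 of 88 for ventilation in young cells. No doublet caller was run, and whether such cells are doublets or took up free RNA was not tested.

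The 8 genes that chose the cells were led by *Chil3*, a chitinase-like lectin, at 6370.1, 5910.1, 6905 and 10278.5 CPM in YNV, YV, ANV and AV cells. The scavenger receptor *Marco* was 175 and 376 CPM in young and 221 and 417 CPM in aged cells without and with ventilation. *Fabp1*, a fatty acid-binding protein, was 398 and 182 CPM in young and 288 and 125 CPM in aged cells in the same order. The other 5 genes differed by less than 2-fold between any pair of libraries compared.

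Ventilated and nonventilated young cells differed more than any other pair compared. A gene was compared when its mean level over both libraries reached 50 CPM and it had at least 20 UMIs in one of them. It was called when its summed level differed at least 2-fold and the 95% counting interval of the ratio, an exact conditional binomial interval, left out 1. Of 3681 genes compared in young cells, 128 were higher after ventilation (3.48%) and 167 lower (4.54%). With median-ratio size factors in place of total UMIs, all ratios moved up by 0.14 on the log2 scale and the split became 198 higher and 122 lower. In aged cells, 30 of 3710 genes were higher (0.809%) and 47 lower (1.27%). Counts of list genes called after ventilation, given below, stand beside these shares of all genes. The median absolute log2 ratio over all genes compared was 0.29 in young and 0.17 in aged cells.

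Some of the antioxidant genes controlled by the transcription factor Nrf2 were higher after ventilation. Of 27 compared in young cells, 9 were higher and 0 lower, with a median log2 ratio of 0.74 against -0.03 over all genes. In aged cells 4 of 27 were higher and 0 lower, with a median of 0.43. *Hmox1*, which degrades heme, stood at 83.1 and 953 CPM in young cells without and with ventilation and at 135 and 455 CPM in aged cells. It was thus 11.5-fold higher in young (interval 10.3 to 12.8) and 3.38-fold higher in aged ventilated cells (3.06 to 3.73). The response difference, the log2 change in aged cells minus that in young cells, was -1.76 (counting interval -1.97 to -1.55). With each cell thinned to 5000 UMIs, *Hmox1* was detected in 29.1% of YNV, 84.9% of YV, 41.5% of ANV and 71.3% of AV cells, and in 2.1% of B cells thinned alike. Without thinning the shares were 65.6, 98.4, 77.5 and 96.0%.

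Genes of cysteine and glutathione supply were among those called. The cystine transporter *Slc7a11* was 128 and 472 CPM in young and 170 and 454 CPM in aged cells, a 3.68-fold (3.35 to 4.05) and a 2.68-fold (2.44 to 2.94) difference. *Gclc*, the catalytic subunit of glutathione synthesis, was 74.7 and 281 CPM in young and 86.5 and 138 CPM in aged cells. The modifier subunit *Gclm* was 65.8 and 139 CPM in young and 56.3 and 97.0 CPM in aged cells. Both subunits were called in young cells and neither in aged cells. *Srxn1*, which repairs oxidized peroxiredoxins, was higher at both ages, at 27.8 and 131 CPM in young and 33.9 and 89.7 CPM in aged cells. The thioredoxin reductase *Txnrd1*, the autophagy adaptor *Sqstm1* and the esterase *Esd* were called in young cells. The exporter *Abcc1* was called at both ages, though its call in aged cells was lost under 8 of 17 alternatives.

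The metallothioneins *Mt1* and *Mt2*, small metal-binding proteins, were both called higher after ventilation at each age. *Mt1* was 1104 and 5378 CPM in young and 1172 and 3093 CPM in aged cells, and *Mt2* was 181 and 1425 CPM in young and 235 and 876 CPM in aged cells. *Mt2* was 7.86-fold higher in young (7.30 to 8.48) and 3.73-fold higher in aged ventilated cells (3.47 to 4.02). The per-cell median of *Mt2* was 76.3 CPM in YNV, 1026 in YV, 151 in ANV and 680 in AV cells. Both genes lie on chromosome 8 of the mm10 build, *Mt2* at 94172664 to 94173568 and *Mt1* at 94179082 to 94180327, on the plus strand.

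The bases before the annotated starts of *Mt2* and *Slc7a11* are shown to mark their matches to known response sequences. They were chosen after the matches were known, from 9 genes whose windows were searched. Promoter sequences came from RefSeq on GRCm38.p6, which had an entry for 397 of the 517 listed genes. The core of the metal response element was searched as TGCNCNC on both strands and is in capitals in *Mt2*, which held 5 matches in chr8:94172368-94172617 on the plus strand, the 250 bases before its RefSeq start. At least 1 match was found in 43.8% of 27025 promoter windows of 250 bases and at least 3 in 4.61%. The *Mt1* window held 1 match. In *Slc7a11* the capitals mark TGATGNAA, the core of the CCAAT-enhancer and ATF response element, searched on both strands and found 2 times within chr3:50443614-50443733 on the minus strand. Windows with at least 1 such match made up 3.53% of the 27025, and those with at least 2 made up 0.037%. The core of the antioxidant response element, searched as TGACNNNGC on both strands, is in 10.1% of the windows and was found 1 time each before *Gclm* and *Mt2* and 0 times before *Srxn1*, *Slc7a11*, *Txnrd1* and *Gdf15*. *Srxn1* and *Gdf15*, also higher at both ages, held 0 matches of TGATGNAA. The capitalized matches did not overlap one another, and a match is a description of letters, not a measured binding site.
Mt2: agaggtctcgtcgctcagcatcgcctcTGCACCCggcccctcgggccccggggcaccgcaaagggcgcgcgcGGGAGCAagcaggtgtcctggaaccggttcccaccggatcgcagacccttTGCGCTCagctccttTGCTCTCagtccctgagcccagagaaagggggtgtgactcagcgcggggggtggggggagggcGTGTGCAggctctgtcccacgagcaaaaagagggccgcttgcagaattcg
Slc7a11: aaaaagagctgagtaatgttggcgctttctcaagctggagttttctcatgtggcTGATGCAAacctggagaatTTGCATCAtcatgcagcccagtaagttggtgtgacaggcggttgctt

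**Figure D1:**
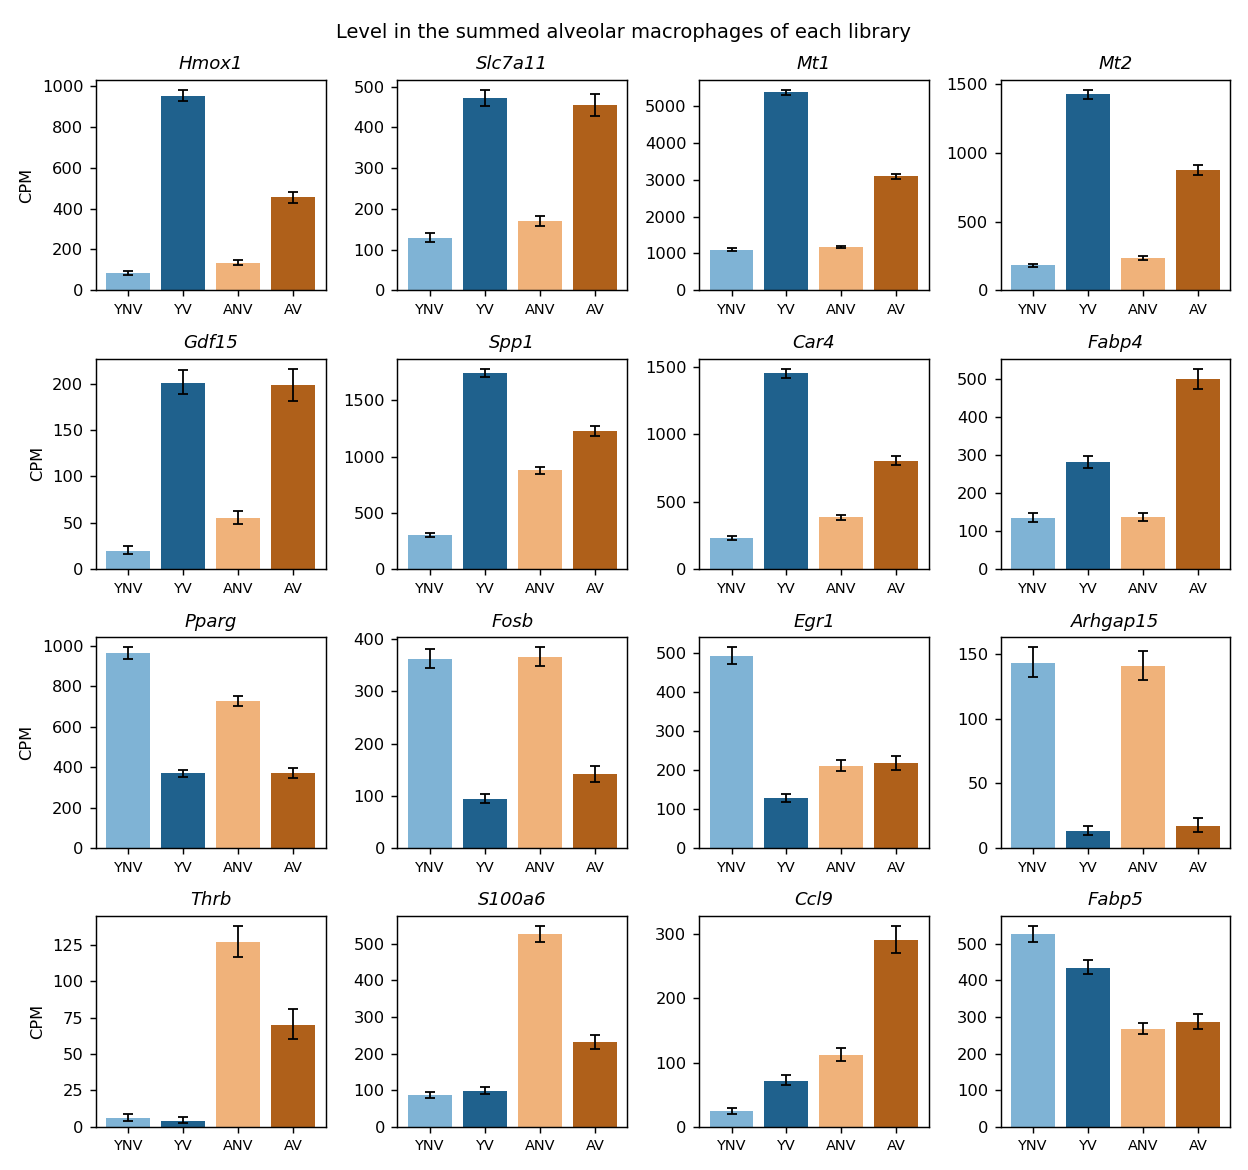
Bars give the level of 16 named genes in CPM, each panel on its own axis from 0, in the summed alveolar macrophages of the YNV, YV, ANV and AV libraries, and error bars are exact Poisson 95% intervals that cover counting error only. *Hmox1*, *Mt1*, *Mt2* and *Car4* are highest in YV cells, *Fabp4* and *Ccl9* in AV cells and *Thrb* and *S100a6* in ANV cells.

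*Gdf15*, a secreted stress cytokine, was 19.8 and 201 CPM in young and 55.2 and 199 CPM in aged cells, a 10.2-fold (8.12 to 12.8) and a 3.60-fold (3.08 to 4.21) difference. The similar levels of the ventilated groups averaged opposite differences by depth: *Gdf15* was 230.03 CPM in YV and 166 CPM in AV cells with over 5000 genes, but 165 and 263 CPM in the cells with fewer. Of the integrated stress response list, 8 genes were compared in each age, and *Gdf15* and *Slc7a11* were higher in both. Its transcription factor *Cebpg* was lower in young ventilated cells, at 112 and 53.8 CPM.

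Some heat-shock chaperones were higher in young ventilated cells. Of 13 compared in young cells, 5 were higher, against 3.48% of all genes compared, and 0 lower, 8 not being called. Their median log2 ratio was 0.80, against -0.03 over all genes. In aged cells 0 were called, with a median of 0.39. *Hspa8*, the constitutive chaperone of the cytosol, was 1346 and 2919.6 CPM in young and 1466 and 1923 CPM in aged cells. *Hspa5*, the chaperone of the endoplasmic reticulum, was 582 and 1450.2 CPM in young and 601 and 1110.1 CPM in aged cells. The response difference of *Hspa8* was -0.73 (counting interval -0.80 to -0.66). *Hsp90aa1*, *Hspd1* and *Hspe1* were the other 3 called.

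Ligands of inflammation were called in part. Of 16 cytokine genes compared, 6 were called higher (*Il1a*, *Il1rn*, *Tnf*, *Ccl3*, *Gdf15* and *Spp1*) and 0 lower, with a median log2 ratio of 0.74. In aged cells 3 of 18 were higher (*Ccl9*, *Igf1* and *Gdf15*) and 0 lower, with a median of 0.29. The call of *Igf1* in aged cells, 1.16 on the log2 scale, was lost without cells that carried neutrophil genes (0.85) or genes of any other type (0.56), and in cells with at most 5000 genes (0.99). *Il1rn*, the antagonist of the interleukin 1 receptor, was 103 and 294 CPM in young and 157 and 163 CPM in aged cells. *Il1a* was 74.0 and 188 CPM in young and 114 and 189 CPM in aged cells. The aged cells without ventilation were thus above the young ones for both genes. *Spp1*, osteopontin, was 303 and 1744 CPM in young and 877 and 1229 CPM in aged cells, and its response difference was -2.04 (-2.15 to -1.93).

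Part of the targets of NF-kB were called in young cells. In these 4 of 19 were higher (*Nfkbia*, *Tnip1*, *Sod2* and *Clec4e*), against 3.48% of all genes compared, and 1 lower (*Cd83*), with a median of 0.62 against -0.03 over all genes, and in aged cells 0 of 19 were called, with a median of 0.16. Whether the lists differ between ages was not tested. *Clec4e*, a lectin that senses dead cells and microbes, was 51.6 and 212 CPM in young and 92.5 and 151 CPM in aged cells. The glycolysis list had 3 of 13 genes higher in young cells (*Hk2*, *Pkm* and *Hif1a*) and 2 in aged cells (*Hk2* and *Pfkfb3*). *Hk2*, the hexokinase that commits glucose to glycolysis, was 43.9 and 129 CPM in young and 41.7 and 84.7 CPM in aged cells. Its call in aged cells was lost under 6 of 17 alternatives, down to 0.86 on the log2 scale with at most 5% mitochondrial UMIs, and that of *Pfkfb3* in cells with at most 5000 genes (0.61). Of 29 ribosomal protein genes, 0 were called in any of the 4 comparisons.

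**Figure D2:**
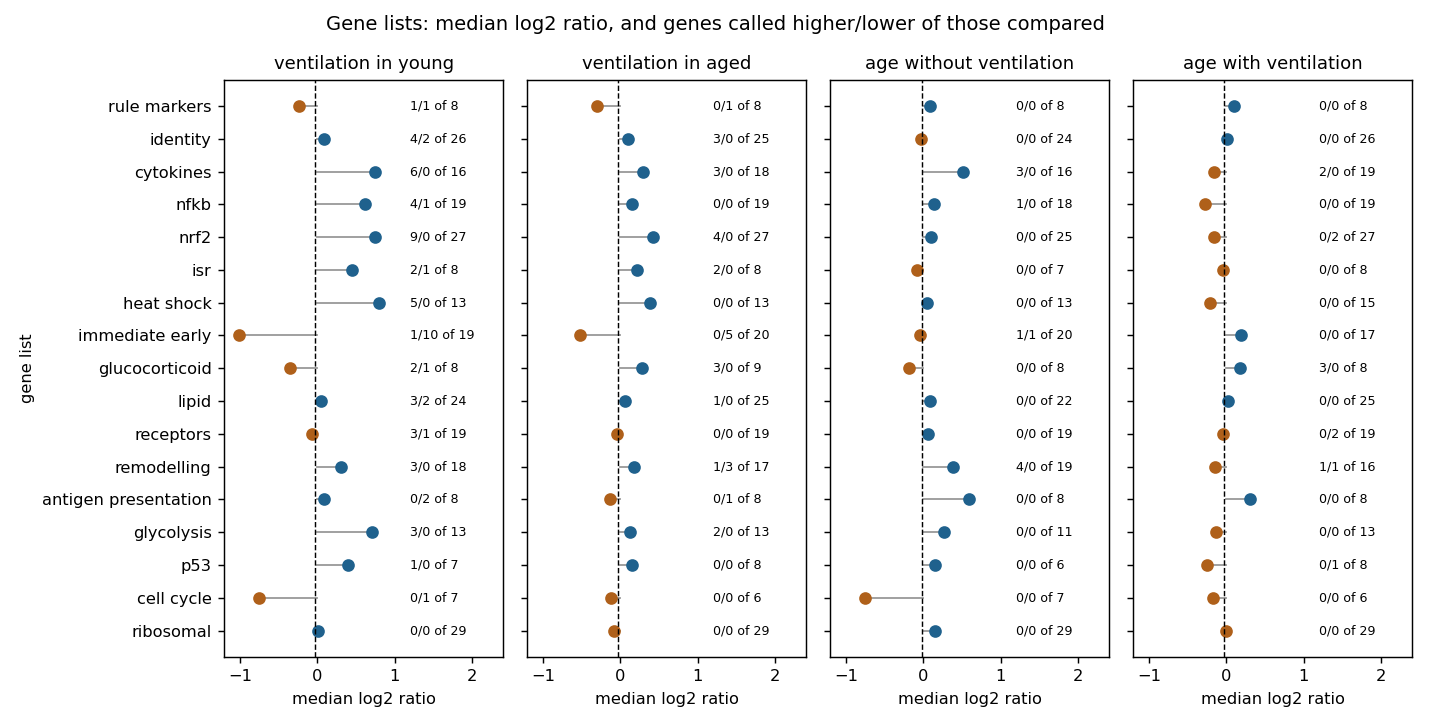
Points give the median log2 ratio of the compared genes of each list in the 4 comparisons, the dashed line is the median over all genes compared, and the text at the right gives genes called higher/lower of those compared (isr, the integrated stress response; rule markers, the 8 genes that chose the cells). In young cells after ventilation the medians of the heat-shock, cytokine, antioxidant (nrf2) and immediate early genes lie at 0.80, 0.74, 0.74 and -1.02.

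Some genes of alveolar macrophage identity were called after ventilation, in both directions in young cells alone. Of 26 compared in young cells, 4 were higher (*Car4*, *Fabp4*, *Bhlhe41* and *Trim29*), against 3.48% of all genes compared. Only 2 were lower (*Pparg* and *Kcnip4*), against 4.54% of all genes, too few to read as a fall of the list. In aged cells 3 of 25 were higher (*Car4*, *Fabp4* and *Bhlhe41*), against 0.809% of all genes, and 0 lower, against 1.27%. *Car4*, a membrane carbonic anhydrase, was 228 and 1452 CPM in young and 383 and 805 CPM in aged cells. It was 6.37-fold higher in young (5.95 to 6.81) and 2.10-fold higher in aged ventilated cells (1.97 to 2.24). The call in aged cells was lost under 5 of 17 alternatives, with a log2 ratio of 0.44 in cells with at most 5000 genes against 1.21 in deep cells. *Fabp4*, a lipid chaperone and target of *Pparg*, was 136 and 281 CPM in young and 137 and 500 CPM in aged cells. Its response difference over all cells was 0.81 (0.61 to 1.01), but it rested on the deep cells, where the log2 ratio was 0.58 in young, no longer called, and 1.92 in aged cells. In cells with at most 5000 genes the ratios were 1.95 and 1.81. *Bhlhe41*, a transcription factor needed for alveolar macrophage self-renewal, was 69.6 and 223 CPM in young and 67.8 and 160 CPM in aged cells.

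*Pparg* itself, the receptor that sets the lipid program, was called lower in young cells alone. It was 963 and 370 CPM in young, 2.60-fold lower (2.46 to 2.75), and 729 and 371 CPM in aged cells, 1.97-fold lower (1.83 to 2.12). *Kcnip4*, the most abundant of these genes before ventilation, was 7024 and 2559 CPM in young and 5551 and 3970 CPM in aged cells. *Abca1*, which exports cholesterol, was lower in young ventilated cells at 396 and 179 CPM, while the oxysterol receptor *Nr1h3* was higher at 27.1 and 90.4 CPM. In aged cells *Abca1* was 306 and 263 CPM and *Nr1h3* 55.6 and 97.0 CPM, neither called. The costimulatory ligand *Cd80* was lower at both ages, at 188 and 93.8 CPM in young and 156 and 72.7 CPM in aged cells. Its call in young cells, at the 2-fold limit, was lost under 6 of 17 alternatives and that in aged cells under 2, both among deep cells (-0.82 and -0.96 on the log2 scale). The genes of class II antigen presentation were not called in either age.

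Part of the immediate early genes, the first transcription factors a stimulus induces, were lower after ventilation. In young cells 10 of 19 were lower and 1 higher (*Maff*), with a median log2 ratio of -1.02, and in aged cells 5 of 20 were lower and 0 higher, with a median of -0.52. *Fosb* was 363 and 94.7 CPM in young and 366 and 141 CPM in aged cells. *Nr4a3*, an orphan nuclear receptor, was 148 and 42.1 CPM in young and 198 and 30.4 CPM in aged cells. *Fosb*, *Nr4a3*, *Nr4a1* and *Klf2* were lower at both ages, though the call of *Klf2* in aged cells was lost without cells that carried genes of another type (-0.74). The call of *Nr4a1* in young cells, -1.15 on the log2 scale, was lost in deep cells (-0.86). In cells with at most 5000 genes *Klf2* was not called at either age, at -0.82 in young and -0.81 in aged cells on the log2 scale, against -2.22 and -1.45 in deep cells. The young calls of *Fos* (-0.69) and *Klf4* (-0.97) were lost there too. *Egr1* was 492 and 128 CPM in young but 211 and 217 CPM in aged cells, so that the aged cells without ventilation were already below the young ones. Tissue was digested enzymatically before capture, and the part of dissociation in these levels was not tested.

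The largest decreases lay mostly in long genes. *Arhgap15*, which inactivates the GTPase Rac, was 143 and 13.3 CPM in young and 141 and 17.3 CPM in aged cells, 10.7-fold (8.28 to 14.2) and 8.13-fold (6.00 to 11.3) lower. *Dnah11*, an axonemal dynein, was 129 and 7.84 CPM in young and 81.5 and 20.0 CPM in aged cells. *Agmo*, which cleaves ether lipids, was 401 and 42.4 CPM in young and 257 and 132 CPM in aged cells. *Patj*, *Dtna*, *Slc9a9*, *Prickle2*, *Peli2*, *Lpin1* and the unnamed locus *Gm34907* completed the 10 largest decreases in young cells. The median genomic length of the genes called lower was 116 kb in young and 119 kb in aged cells, against 37.4 and 37.1 kb over the genes compared. Genes called higher had medians of 25.2 and 35.9 kb. Among genes over 150 kb, 17.9% were lower in young (74 of 414) and 4.98% in aged cells (21 of 422). In the same class 4.83% were higher in young (20 genes) and 0.711% in aged cells (3 genes). Over all genes compared, the shares called higher were 3.48% and 0.809%. The counting pipeline includes intronic reads by default, so a long gene's level rests more on unspliced RNA, and the part of this in the decreases was not tested.

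**Figure D3:**
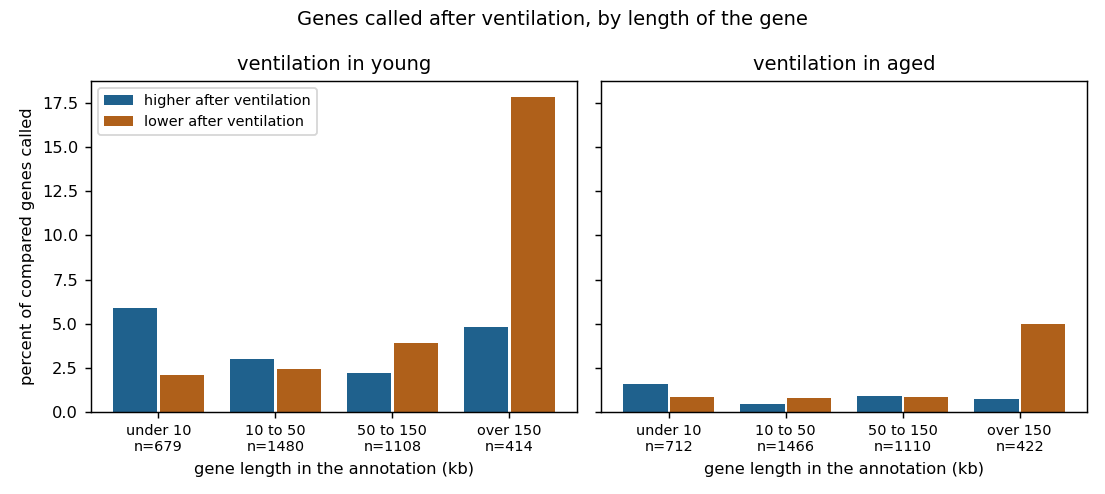
Bars give the percent of compared genes that were called higher or lower after ventilation, by genomic length of the gene in kb, with the number of genes under each class. Among genes over 150 kb, 17.9% were lower in young and 4.98% in aged cells, and 4.83% and 0.711% were higher.

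Surface receptors of uptake and danger sensing were mixed. In young cells 3 of 19 were higher (*Colec12*, *Clec4e* and *Cd14*), against 3.48% of all genes, and 1 lower (*Mertk*), against 4.54%. In aged cells 0 of 19 were called. The call of *Cd14*, 1.07 on the log2 scale, was lost in deep cells (0.85). That of *Mertk*, -1.03, was lost with median-ratio size factors (-0.89). *Cd14*, the lipopolysaccharide coreceptor, was 78.4 and 165 CPM in young and 112 and 140 CPM in aged cells. *Mertk*, which binds dying cells, was 1541 and 752 CPM in young and 1377 and 896 CPM in aged cells. The median log2 ratio of the receptors was -0.07 in young cells, and 0.07 with median-ratio size factors.

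Genes of matrix and tissue remodeling included 3 of 18 higher in young cells (*Spp1*, *Mmp19* and *Tgm2*) and 0 lower. *Mmp19*, a matrix metalloproteinase, was 134 and 546 CPM in young and 229 and 347 CPM in aged cells. *Tgm2*, which crosslinks matrix proteins, was 180 and 499.6 CPM in young and 337 and 393 CPM in aged cells. In aged cells 1 of 17 was higher (*Gpnmb*) and 3 lower (*Fn1*, *Sema3e* and *S100a6*). The calls of *Gpnmb* and *Fn1* were lost without cells that carried neutrophil genes, at 0.85 and -0.76 on the log2 scale. *Gpnmb*, a lysosomal glycoprotein of lipid-laden macrophages, was 113 and 156 CPM in young and 103 and 217 CPM in aged cells. The guidance ligand *Sema3e* was 78.0 and 62.0 CPM in young and 186 and 80.8 CPM in aged cells, so that both *Sema3e* and *S100a6* were highest in aged nonventilated cells. Of the p53 targets 1 of 7 was higher in young cells (*Gadd45b*), and 0 of 3 interferon-stimulated genes were called in any comparison.

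The spread from cell to cell was wide within each library. *Hmox1* per cell had a lower quartile, median and upper quartile of 0, 51.7 and 121 CPM in YNV cells and of 284, 650.2 and 1179.8 CPM in YV cells, so the middle ranges of these libraries did not meet. In ANV cells the quartiles of *Hmox1* were 31.1, 83.0 and 175 CPM, and in AV cells 144, 279 and 596 CPM, which did meet. *Car4* had quartiles of 0, 113 and 345 CPM in YNV and of 825, 1249 and 1837 CPM in YV cells. In ANV cells the quartiles of *Car4* were 35.0, 217 and 527 CPM and in AV cells 92.9, 389 and 917 CPM. For *Spp1* the median per cell was 183, 1221, 464 and 563 CPM in YNV, YV, ANV and AV cells, while single cells reached 16569 CPM in YV. For *Kcnip4* the median was 6407, 2206, 5085 and 3352 CPM in the same order. The rise of *Hmox1* and *Car4* in young cells thus took in most of the library, and the difference of *Spp1* in aged cells, not called, was small beside the spread of its cells.

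The other large increases in young cells fell outside the lists. *Ch25h*, which makes an oxysterol, was 38.5 and 275 CPM in young and 45.1 and 111 CPM in aged cells. *Lrp8*, a lipoprotein receptor, was 14.2 and 110 CPM in young and 14.0 and 59.6 CPM in aged cells. *Nrp2*, a semaphorin coreceptor, was 113 and 658 CPM in young and 232 and 402 CPM in aged cells. Each of these levels was lower in aged than in young ventilated cells. *Saa3*, an acute-phase protein, had 0 UMIs in YNV and ANV cells, 627 in YV and 122 in AV cells, but 92.2% of the YV and 81.1% of the AV UMIs came from a single cell each.

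**Figure D4:**
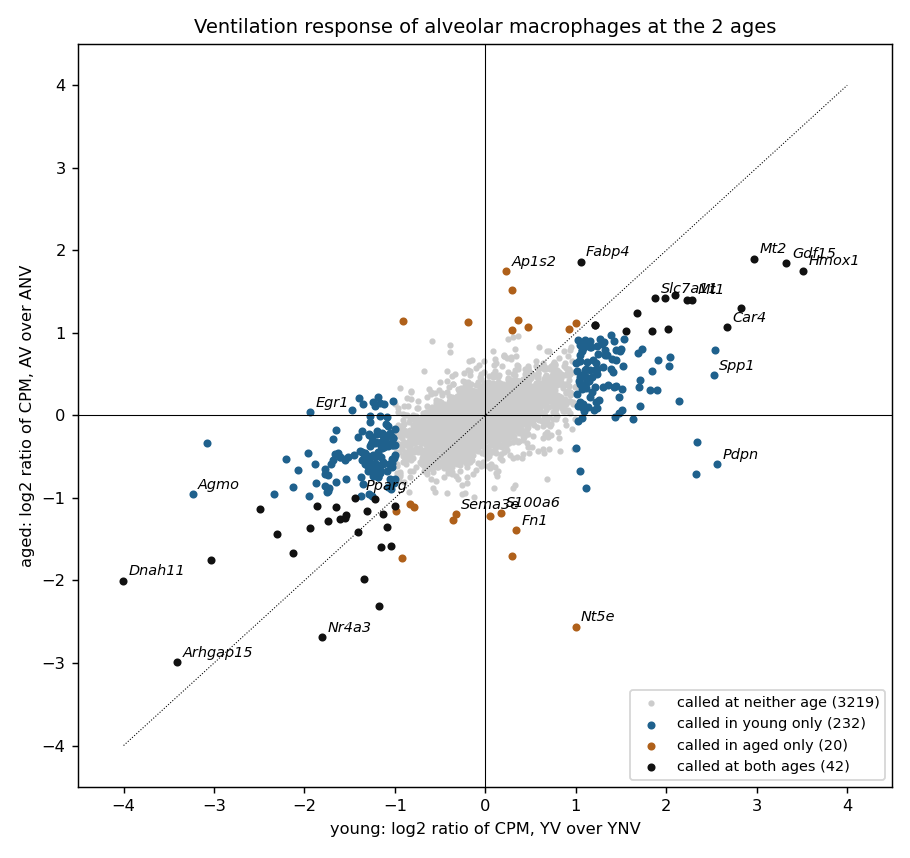
Each point is 1 of the genes compared at both ages, placed by its log2 ratio of ventilated over nonventilated cells in young (x axis) and aged cells (y axis), with the dotted line at equal change and colors for the age at which it was called. Of the called genes 42 were called at both ages, 232 in young cells alone and 20 in aged cells alone.

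The genes called after ventilation were shared between ages in part. Of those higher, 17 were called at both ages, 13.3% of the young and 56.7% of the aged calls, and of those lower 25 were called at both, 15.0% of the young and 53.2% of the aged calls. No gene was called in opposite directions. Of the 128 genes higher in young cells, 119 were compared in aged cells, where 109 had the same sign, with a median log2 ratio of 0.56 against 1.26 in young cells. Of the 167 lower in young cells, 155 were compared in aged cells and 145 had the same sign, with medians of -0.53 and -1.26. Choosing genes by their young ratios enlarges the young medians, so these gaps do not measure a smaller response in aged cells. Of the 30 genes higher in aged cells, 26 were compared in young cells and 24 had the same sign. Their median in young cells was 1.61, above that in aged cells. Of the 47 lower in aged cells, 36 were compared in young cells and 31 had the same sign. The medians of the lower genes were -1.28 in aged and -1.26 in young cells. The aged ventilated library had the fewest cells, and 1 library stands behind each value.

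A few genes had ratios of opposite sign at the 2 ages. *Fn1*, fibronectin, was 415 and 525 CPM in young but 665 and 253 CPM in aged cells without and with ventilation, called lower in aged cells. That call, -1.39 on the log2 scale, was lost without cells that carried genes of another type (-0.60) or neutrophil genes (-0.76), and in cells with at most 5000 genes (-0.88). *Nt5e*, the ectonucleotidase CD73, was 36.2 and 72.4 CPM in young and 138 and 23.1 CPM in aged cells. *Pdpn*, podoplanin, was 17.7 and 106 CPM in young and 110 and 72.7 CPM in aged cells. In these genes the aged nonventilated cells stood above the young nonventilated ones. Among genes called higher in aged cells with little difference in young cells, *Ap1s2*, a clathrin adaptor subunit, was 88.2 and 104 CPM in young and 71.6 and 241 CPM in aged cells.

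Without ventilation, aged and young cells differed mainly by genes that were higher with age. Of 3756 genes compared, 37 were higher in aged cells (0.985%) and 8 lower (0.213%), the latter number being 22 among deep cells alone. *Thrb*, the beta thyroid hormone receptor, was 5.84 CPM in YNV and 127 CPM in ANV cells, 21.7-fold higher (14.5 to 33.8), and with ventilation 4.24 CPM in YV and 70.0 CPM in AV cells. The share of cells differed too: thinned to 5000 UMIs, *Thrb* was detected in 2.2% of YNV and YV, 30.3% of ANV and 21.8% of AV cells, and in 1.4% of B cells. Unthinned shares were 3.8, 6.5, 55.0 and 40.6%. *Esrrg*, an orphan nuclear receptor, was 37.1 and 12.9 CPM in young and 175 and 106 CPM in aged cells without and with ventilation. In interstitial macrophages *Thrb* was 29.2 and 8.69 CPM in young and 17.9 and 14.2 CPM in aged cells.

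Other genes called higher with age were *Ccl9*, *Cd63* and *S100a6*. *Ccl9*, a chemokine, was 24.5 and 71.8 CPM in young and 112 and 291 CPM in aged cells without and with ventilation, 4.57-fold (3.69 to 5.69) and 4.05-fold (3.56 to 4.61) higher with age. *Ccl6* was 1972 and 2689 CPM in young and 3151 and 4189 CPM in aged cells, a difference below 2-fold in each pair. Both chemokines were thus lowest in young nonventilated and highest in aged ventilated cells. *Cd63*, a lysosomal tetraspanin, was 153 and 278 CPM in young and 363 and 509 CPM in aged cells, called without ventilation alone, and that call was lost in deep cells (0.94 on the log2 scale). *S100a6*, a calcium-binding protein, was 87.1 and 98.0 CPM in young and 525 and 232 CPM in aged cells. Thinned to 5000 UMIs, *S100a6* was detected in 11.5% of YNV, 19.5% of YV, 52.7% of ANV and 40.6% of AV cells, and in 19.0, 29.2, 27.1 and 10.9% of the B cells of these libraries. The young shares thus lay below those of B cells, and whether free RNA gave either was not tested. With ventilation its call with age, 1.24 on the log2 scale, was lost without cells that carried neutrophil genes (0.77) or genes of any other type (0.35).

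Of the remodeling list, 4 of 19 genes were higher in ANV than in YNV cells (*Spp1*, *Cd63*, *Sema3e* and *S100a6*) and 0 lower. Of the cytokine list, 3 of 16 were higher (*Ccl3*, *Ccl9* and *Spp1*) and 0 lower. *Pde10a*, a phosphodiesterase, was 18.9 CPM in YNV and 113 CPM in ANV cells, and *Hmcn1*, a basement membrane protein, 69.1 and 288 CPM. *Rbms3*, *Rbfox1*, *Nr4a2*, *Nrp2* and *Tnip1* were also higher with age. The call of *Nrp2*, 1.03 on the log2 scale, was lost without cells that carried neutrophil genes (0.98) or genes of any other type (0.99) and in deep cells (0.83), and that of *Tnip1* in cells with at most 5000 genes (0.75). The 10 largest increases included *S100a8* at 27.3 and 127 CPM, which moved with the neutrophil list given above and lost its call when cells with neutrophil genes were left out. Its log2 ratio was 2.21 over all cells and 1.32 without those cells, still above the 2-fold limit.

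Few genes were lower with age. *Egr1* was 2.33-fold lower in ANV than in YNV cells (2.16 to 2.52). *Gal*, the neuropeptide galanin, was 74.2 and 27.9 CPM, and *Fabp5*, a fatty acid-binding protein, 526 and 268 CPM, 1.96-fold lower and below the 2-fold limit. *Rad51b*, a DNA repair protein, and *Diaph3*, an actin-nucleating formin, were 87.8 and 32.7 CPM and 78.4 and 34.3 CPM. The call of *Diaph3* was lost in cells with at most 5000 genes, though its log2 ratio there was -1.49, against -1.19 over all cells. Among cells with at most 5000 genes *Rad51b* was 0.28 higher on the log2 scale in ANV than in YNV cells. The identity list had 0 of 24 genes called with age, the antioxidant list 0 of 25 and the heat-shock list 0 of 13. Class II genes were above the young level without being called: *H2-Aa* was 443 and 706 CPM and the invariant chain *Cd74* 1030.05 and 1603 CPM in YNV and ANV cells.

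After ventilation, 40 of 3633 genes were higher in aged than in young cells (1.1%) and 21 lower (0.578%). *Esrrg* and *Ccl9* were again among the 10 largest increases, and 10 genes were called higher with age both without and with ventilation, 27.03% and 25% of the calls. Of 8 glucocorticoid targets compared, 3 were higher (*Fkbp5*, *Tsc22d3* and *Pdk4*) and 0 lower, and in young cells after ventilation 2 of 8 were higher (*Mt1* and *Mt2*) and 1 lower (*Tsc22d3*), with a median log2 ratio of -0.35. In aged cells after ventilation 3 of 9 were higher (*Mt1*, *Mt2* and *Pdk4*) and 0 lower, with a median of 0.28 that turned to -0.02 without cells that carried neutrophil genes. *Tsc22d3*, a mediator of glucocorticoid effects, was 92.9 and 35.2 CPM in young and 83.1 and 96.2 CPM in aged cells without and with ventilation, so it was called lower after ventilation in young cells alone. *Fkbp5*, a cochaperone of the glucocorticoid receptor, was 157 and 105 CPM in young and 115 and 215 CPM in aged cells. *Pdk4*, which restrains pyruvate oxidation, was 7.94 and 36.8 CPM in young and 33.6 and 89.7 CPM in aged cells. All 3 calls with age were lost without cells that carried neutrophil genes, which were 43.6% of AV and 12.4% of YV cells, and without cells that carried genes of any other type. With neutrophil-gene cells left out the log2 ratio of *Tsc22d3* was 0.94 and that of *Pdk4* 0.92, against 1.45 and 1.28 over all cells, and that of *Fkbp5* moved from 1.04 to just under the 2-fold limit. Without cells of any other type's genes *Pdk4* was 0.21. The median of the list turned from 0.18 to -0.06 and -0.01 in these alternatives.

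The genes lower in aged than in young ventilated cells included several of those called higher after ventilation in young cells. Both comparisons use the YV library, so a level particular to that library would enter both. *Hmox1* was 2.09-fold lower in AV than in YV cells (1.96 to 2.23), *Gclc* 2.04-fold lower (1.81 to 2.30) and *Ch25h* 2.47-fold lower (2.17 to 2.82). The call of *Gclc* was lost under 8 of 17 alternatives, down to -0.60 on the log2 scale with at most 5% mitochondrial UMIs, and that of *Hmox1* under 3, down to -0.76 with cells thinned to 5000 UMIs. *Tgfbi*, a matrix protein, was 293 and 1037 CPM in young and 340 and 421 CPM in aged cells. *Clec4n*, the lectin dectin-2, was 572 and 898 CPM in young and 508 and 371 CPM in aged cells. *Slc7a11* and *Gdf15* did not follow, at ratios of 1.04-fold lower (interval of the inverse ratio 0.969 to 1.12) and 1.01-fold lower (0.91 to 1.13), the latter over cells of both depths, in which *Gdf15* pointed in opposite directions. *Agmo* and *Lpin1*, lower after ventilation in young cells, were 3.13-fold (2.62 to 3.74) and 2.98-fold (2.60 to 3.42) higher in AV than in YV cells.

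The deep cells, with over 5000 genes, made up 45.4% of YNV, 44.3% of YV, 49.7% of ANV and 52.5% of AV cells, and held 58.9, 56.2, 64.1 and 66.8% of their UMIs. Their median depth in YNV was 28302 UMIs, against 17524 in the other YNV cells. Summed levels of deep and other cells were compared within each library over 3708 genes, and 3 genes were at least 2-fold higher in the deep cells of all 4 libraries, all of them genes of dividing cells, while 0 were lower in all 4. Because cells were split by their number of detected genes, this comparison describes the split and is no test.

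*Top2a*, which untangles DNA at mitosis, was 207, 92.4, 108 and 70.2 CPM in deep YNV, YV, ANV and AV cells, against 5.11, 3.86, 5.74 and 1.16 CPM in the other cells. *Mki67*, the proliferation antigen, was 150, 104, 82.5 and 55.3 CPM in deep cells, against 15.3, 2.42, 8.93 and 0 CPM. *Stmn1*, which destabilizes microtubules, was 231, 144, 105 and 118 CPM, against 27.3, 15.9, 33.8 and 17.4 CPM. The deep cells held 96.8 to 99.2% of the UMIs of *Top2a* in a library, 93.3 to 100% of those of *Mki67* and 84.8 to 93.2% of those of *Stmn1*. A UMI of at least 10 of the listed cell cycle genes was found in 14.2% of YNV (26 cells, 9.50 to 20.1%), 13.0% of YV (24 cells), 8.38% of ANV (16 cells) and 7.92% of AV cells (8 cells, 3.48 to 15.0%). Of these cells 24, 19, 14 and 8 were deep. Thinned to 5000 UMIs, cells with at least 5 of the genes made up 15.9, 12.4, 10.6 and 7.92%. The intervals of the 4 libraries overlapped, and with 1 library per group a difference between ages could not be tested. An upper limit of 5000 genes would have left out most cells with cycle genes.

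**Figure D5:**
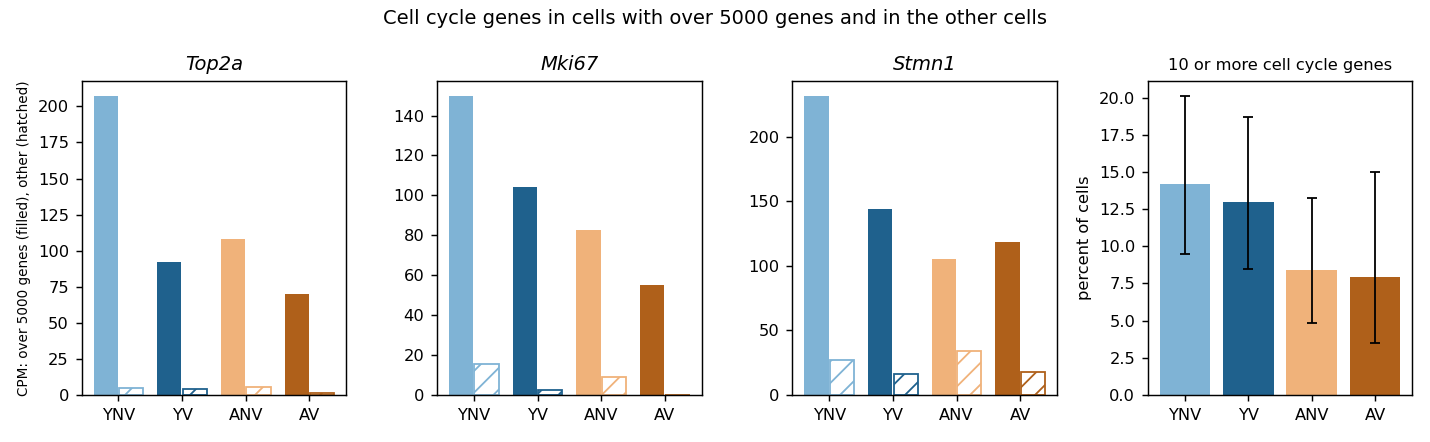
The first 3 panels give the CPM of *Top2a*, *Mki67* and *Stmn1* in cells with over 5000 genes (filled) and in the other cells (hatched) of each library, and the last gives the percent of all alveolar macrophages with at least 10 cell cycle genes, with exact binomial 95% intervals. The filled bars exceed the hatched ones in all 4 libraries, and the 4 intervals overlap.

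At least 3 genes of another type's list were found in 39.8, 34.1, 46.3 and 56.6% of deep YNV, YV, ANV and AV cells, against 11, 16.5, 17.7 and 41.7% of the others. Cells with more detected genes hold more genes of any list, so these shares follow in part from the split. As summed CPM the lists were mixed. The neutrophil, monocyte and fibroblast lists were higher in the deep cells of all 4 libraries. The list of alveolar type I and airway genes was lower in all 4, and the other lists differed in direction between libraries. B-cell genes in ANV cells were 127 CPM in deep and 5.74 CPM in other cells, where 3 cells held at least 3 of these genes, 2 of them deep. In YNV they were 10.7 and 3.98 CPM, but in YV 0.377 and 2.90 CPM and in AV 2.88 and 3.48 CPM in deep and other cells. The part of doublets in the deep cells was not tested.

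Several differences after ventilation were found in both classes of depth, and others in one alone. *Hmox1* was higher by 3.52 on the log2 scale in deep and by 3.50 in other young cells, and by 1.62 and 1.99 in aged cells. *Mt2* was higher by 2.73 and 3.41 in young and by 1.75 and 2.17 in aged cells. *Slc7a11* differed more by depth in young cells, with 1.51 in deep and 2.85 in other cells. In aged cells *Car4* was higher by 1.21 in deep and 0.44 in other cells and *Pdk4* by 1.78 and 0.52, neither called in the other cells. The *Pdk4* call in aged cells, 1.41 on the log2 scale, was also lost without cells that carried neutrophil genes (0.93) or genes of any other type (0.79). In young cells *Fabp4* was higher by 0.58 in deep cells, where it was not called, and by 1.95 in the others, and *Fabp5* had ratios of opposite sign, -0.65 and 0.79. *Thrb* was higher with age by 4.79 in deep and 3.65 in other cells without ventilation. Of the 20 largest differences in each comparison, 20, 19, 19 and 18 had the same sign in deep and other cells for ventilation in young, ventilation in aged, age without and age with ventilation. The exceptions were *Mgp* in both comparisons with aged ventilated cells, *Rad51b*, and *Saa3*. The 20 were chosen by their ratios over deep and other cells together. This choice favors the same sign in both, so the agreement is no check.

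Some of these differences were also present in other cells of the same lungs. In interstitial macrophages (68 YNV, 65 YV, 55 ANV and 83 AV cells), *Hmox1* was 95.3 and 1691 CPM in young and 74.5 and 1036 CPM in aged cells without and with ventilation, and in nonclassical monocytes 116 and 1111 CPM and 77.2 and 1507 CPM. B cells stayed at or below 10.3 CPM. *Arhgap15* was lower after ventilation in these cells too, at 876 and 165 CPM in young and 684 and 206 CPM in aged interstitial macrophages. *Egr1* in interstitial macrophages was 1717 and 202 CPM in young and 790 and 485 CPM in aged cells. *Car4* was below 1 CPM in interstitial macrophages of every library, and *Gdf15* there was 35.8 and 63.7 CPM in young and 73.5 and 129 CPM in aged cells. These cells were chosen by their own marker genes in the same libraries, and no test of the difference between cell types was possible with 1 library per group.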

How the data were processed

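Single-cell suspensions of the left lung lobe were profiled on the 10x platform, 1 library per group of 3 pooled mice, from cryopreserved cells. The UMI counts per gene and barcode were deposited by the authors as raw matrices made with Cell Ranger 7.0.0 (version per the submitters' processing notes) on mm10, and were not normalized. Cell Ranger of this version counts intronic reads by default. The study's own limit of 5000 genes was replaced by 7500. No doublet caller, clustering or correction for free RNA was run. Libraries shared 23 barcodes by sequence, 0 of them among the cells analysed.

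Counts were summed over the cells of a library, divided by their total and given as CPM. Log2 ratios were taken with 1 UMI added to each sum. Genes that averaged 50 CPM or more in the pair and reached 20 UMIs in 1 library were compared and could be called. The search for opposite directions in the closing section did not apply this minimum to each of its ratios. Intervals (95%) were exact Poisson, Clopper-Pearson or conditional binomial ones, and PCR and pool differences are outside them. Against 0 UMIs the floor was 3 counts per library. Cells were thinned to 5000 UMIs for shares, leaving out 4 shallower ones. Mitochondrial genes were not named. The named genes were, per comparison, the 10 largest increases and 10 largest decreases found in at least 10% of the cells of the higher library, and the genes of the lists. Members, lists and comparisons were chosen with earlier results of these data known. The listed symbols Clec7a and Mx1 were not used here. Python 3.11.15, numpy 2.4.6, scipy 1.17.1, pandas 2.3.3 and matplotlib 3.10.9 were used, and 17 alternatives were run. Gene coordinates were taken from the annotation for 99.8% of the gene identifiers.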

Additional observations from a re-analysis of the deposited data

Results flagged for a closer look

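In 22 genes a contrast pointed in opposite directions in the 2 groups set side by side, with counting intervals on both sides of 1 and at least a 2-fold difference in one of them. The values given are the log2 change after ventilation in aged cells minus that in young cells. With 1 library per group the difference was not tested. The minimum of 50 CPM was not applied to each ratio here, and genes that fell below it in one of the comparisons are named.

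For 8 of the genes, 1 of them below the minimum in a pair, the opposite directions were those of ventilation at the 2 ages. The change was more negative in aged cells for *Nt5e*, which makes adenosine (-3.56), *Pdpn* (-3.15), the growth factor *Ereg* (-3.04), the lipid droplet protein *Hilpda* (-2.67), *Pde10a* (-2.33, its young pair below the minimum), *Fn1* (-1.73) and the kinase *Fyn* (-1.72). It was more positive for *Sh2d4b* (2.05). *Ereg* was 17.5 and 88.9 CPM in young and 82.9 and 50.4 CPM in aged cells without and with ventilation, and *Hilpda* 19.1 and 98.0 CPM in young and 74.4 and 59.3 CPM in aged cells. In both genes the aged nonventilated level lay near the young ventilated one. Without the 1 cell with the most UMIs of the gene, the log2 ratio of *Ereg* after ventilation in young cells moved from 2.33 to 3.19. With age without ventilation it moved from 2.23 to 3.03. These calls of *Ereg* were lost under 3 and 7 of 17 alternatives, though the ratios stayed above 2-fold in all of them.

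In the other 14 genes, 5 of them below the minimum in a pair, the opposite directions were those of age without and with ventilation. The difference was negative for *Spp1* (-2.04), the stress gene *Gadd45b* (-1.96, its pair without ventilation below the minimum), *Hmox1* (-1.76), *Nrp2* (-1.74), *Tgfbi* (-1.52) and *Tnip1* (-1.30). These were higher in aged cells without ventilation and lower in aged cells with it. The difference was positive for *Gm16168* (3.76), *Dtna* (2.74), *Agmo* (2.28), *Egfem1* (2.15), *Dnah11* (2.01), *Egr1* (1.98), *Ap1s2* (1.52) and *Fkbp5* (1.49), which were lower in aged cells without ventilation and higher with it. With ventilation *Gm16168*, *Dtna*, *Egfem1* and *Dnah11* were below the minimum, at 3.81, 16.5, 10.8 and 7.84 CPM in YV and 26.9, 71.2, 23.5 and 20.0 CPM in AV cells, so these ratios could not be called. *Gm16168* and *Egfem1* were below it for ventilation at both ages too.

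The rule left out 54 barcodes that met every other condition but held a UMI of *Cdh5*, a gene of endothelial cells. They were 12 in YNV, 19 in YV, 16 in ANV and 7 in AV, and taking them in moved none of the 8 counts of called genes by 1.5 times.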

How the results depend on the processing

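Of 192 called results of listed or named genes, 113 kept their call under all 17 alternatives, 15 of them planned and 2 chosen after seeing the data, and 79 lost it under at least 1. The alternatives with a lower or no CPM minimum keep every ratio and only compare more genes, so they cannot end a call. Taking genes from a mean of 10 CPM, 276 were higher and 501 lower after ventilation in young, 94 and 187 in aged cells, 165 and 66 with age without ventilation and 217 and 80 with ventilation. Without a CPM minimum these were 426 and 1016, 156 and 535, 385 and 221, and 395 and 268, since more genes were compared. Size factors gave 198 higher in young cells. In cells with at most 5000 genes (100 YNV, 103 YV, 96 ANV and 48 AV), 51 were higher after ventilation in aged cells. Genes lower with age without ventilation numbered 22 in deep cells, 15 with at most 5% mitochondrial UMIs, 5 by the mean of per-cell CPM and 16 without the 5 deepest cells per library. With cells thinned to 5000 UMIs, 62 genes were higher with age after ventilation.

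In cells with at most 5000 genes, 5 called results changed sign: *Mgp* after ventilation in young (0.088) and aged cells (0.048) and with age after ventilation (0.0016), *Rad51b* with age (0.28), and *Saa3* with age after ventilation (0.024). Without cells that carried genes of another type, *Mgp* reversed in young (0.48) and aged cells (0.79) and with age after ventilation (0.45), and *Top2a* in young cells (0.089). Without the 1 cell that held most of its UMIs, *Saa3* with age after ventilation was -0.20 and *Mgp* -0.43, below the 2-fold limit. The cause was not tested. Of 68 list medians, 27 changed sign under at least 1 alternative. The neutrophil and other-type alternatives ended the call of *S100a8* with age without ventilation, though its log2 ratios there, 1.32 and 1.00, were not below the 2-fold limit. With ventilation its call held under all 17 (1.39 to 2.10). Among other calls named in the report, that of *Gal* with age without ventilation was lost under 6 alternatives, *Diaph3* with age under 5, *Cebpg* under 4, *Dnah11* in aged cells, *Pkm* and *Rad51b* with age under 3, and *Cd83*, *Fabp1*, *Gclm*, *Hspd1*, *Marco* and, in aged cells, *S100a6* under 2. Not all of these ratios fell below 2-fold. Over all alternatives the log2 ratio of that *Gal* call lay between -1.52 and -1.19 and that of *Diaph3* with age between -1.69 and -1.09. It lay between -2.19 and -1.76 for *Dnah11* in aged cells and between -1.95 and -1.22 for *Cd83*. No paired analysis was possible because each group is 1 library. Leaving out replicates was not possible for the same reason. At 101 cells, AV sums limit the smallest detectable differences.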
